A study of Homo sapiens with 9 samples.

Results

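The genes of cholesterol and fatty acid synthesis were followed in MDA-MB-453 cells, an established human breast cancer cell line whose labels call it triple-negative, as they left the culture surface and as tryptophan breakdown was blocked. The members were the 38 rows of the gene count table, of 59452 in all, that carried the symbols of 3 groups: 6 regulators, 19 enzymes of the sterol branch and 13 enzymes of the fatty acid branch. All 38 passed the filter on low counts. The samples were 9 RNA-seq libraries, 3 biological replicates of each of 3 conditions: regular attached culture with vehicle, forced suspension on poly-HEMA with vehicle, and forced suspension with 10 µM AT0174, written AT-0174 below, a dual inhibitor of TDO2 and IDO1, the enzymes that open the tryptophan ring. The vehicle was DMSO, each condition lasted 48 hours, the genotype was WT throughout, and all cells grew in DMEM with 10% fetal bovine serum, which itself supplies cholesterol and fatty acids. No attached culture with AT-0174 was part of the design, so the inhibitor was compared only in suspension, and all libraries came from 1 cell line.

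Animal cells make cholesterol from acetyl-CoA through mevalonate, isoprenoid units, squalene and lanosterol, and make fatty acids from the same acetyl-CoA through malonyl-CoA and palmitate. Both routes are switched on by the SREBP transcription factors, encoded by SREBF1 and SREBF2. SCAP carries them out of the endoplasmic reticulum when sterols are low, and INSIG1 and INSIG2 hold them back when sterols are high. SREBP-2 is known mainly for the sterol genes and SREBP-1 mainly for the fatty acid genes, and INSIG1 is itself a target of this feedback.

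The promoters of 4 members are shown. SREBF2 was taken because it encodes the master factor of the sterol branch. INSIG1, LSS and ELOVL1, from the 3 groups in turn, were taken because each differed between suspended and attached vehicle cells. That choice was made after their values were seen, and these genes are not typical of their groups. The windows are the 250 bases before the RefSeq start site on GRCh38.p14, read 5′ to 3′ on the gene's strand, at chr22:41832855-41833104 on the plus strand for SREBF2, chr7:155297628-155297877 on the plus strand for INSIG1, chr21:46228775-46229024 on the minus strand for LSS and chr1:43368012-43368261 on the minus strand for ELOVL1. GENCODE release 44 places the outermost transcript start earlier, so that 102 bases of the INSIG1 window, 50 of the LSS window and 63 of the ELOVL1 window lie inside the annotated gene. Capitals mark matches to the sterol regulatory element, searched as TCACNCCAC, and to the CCAAT box, on either strand.
SREBF2: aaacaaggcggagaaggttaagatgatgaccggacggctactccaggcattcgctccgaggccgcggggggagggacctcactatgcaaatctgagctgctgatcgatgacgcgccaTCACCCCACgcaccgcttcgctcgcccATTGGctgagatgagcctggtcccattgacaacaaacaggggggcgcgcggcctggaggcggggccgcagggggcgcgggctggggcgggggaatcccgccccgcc
INSIG1: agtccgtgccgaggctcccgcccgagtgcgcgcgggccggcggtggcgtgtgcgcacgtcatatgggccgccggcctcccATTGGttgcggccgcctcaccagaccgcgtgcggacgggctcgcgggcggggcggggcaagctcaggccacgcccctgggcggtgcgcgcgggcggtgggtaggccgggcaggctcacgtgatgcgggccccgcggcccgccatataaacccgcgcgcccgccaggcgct
LSS: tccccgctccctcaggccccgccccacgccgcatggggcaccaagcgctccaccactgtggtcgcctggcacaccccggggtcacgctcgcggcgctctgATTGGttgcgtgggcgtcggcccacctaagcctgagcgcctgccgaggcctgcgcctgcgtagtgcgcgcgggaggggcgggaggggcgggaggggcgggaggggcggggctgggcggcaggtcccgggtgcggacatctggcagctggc
ELOVL1: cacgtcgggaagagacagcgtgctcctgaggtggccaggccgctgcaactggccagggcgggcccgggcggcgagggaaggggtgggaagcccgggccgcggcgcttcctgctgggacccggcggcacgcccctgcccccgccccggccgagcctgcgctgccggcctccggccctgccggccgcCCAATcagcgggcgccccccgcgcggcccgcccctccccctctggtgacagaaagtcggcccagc

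RefSeq gave 48 promoters of 300 bases, 250 before and 50 after the start, for 34 of the 38 members. FASN, ACAT2, FDFT1 and SQLE had no entry. The sterol regulatory element matched in 1 of the 48, that of SREBF2, or 2.08%, beside 1.13% of all 35116 promoters of this length. It matched in 0 of 23 promoters of the sterol branch and 0 of 18 of the fatty acid branch. Only this string and these 300 bases were searched, so its absence does not show that a promoter lacks such an element. The CCAAT box, the usual site of NF-Y, matched in 16 of 23 promoters of the sterol branch (69.6%) and in 12 of 18 of the fatty acid branch (66.7%), beside 34.6% of all promoters. The GC box GGGCGG, the usual site of SP1, matched in 20 of 23 (87%) and 14 of 18 (77.8%), beside 45% of all. The 2 branches thus held these letters at similar shares. Promoters of 1 gene overlap, and a match describes letters only.

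Lipogenic enzymes stood high among the transcripts of these cells in every library. In TPM, the authors' Salmon abundance per effective transcript length scaled to a fixed total, FASN, the synthase that builds palmitate, lay between 778 and 959 and ranked 135 to 159 among all genes of the table. SCD, the desaturase that makes oleate, lay at 579 to 701 TPM, and the regulator SREBF1 between 478 and 626 TPM. FASN and SCD together held 73.9% to 76.1% of the summed TPM of the fatty acid branch. In the sterol branch the level was spread more evenly, with FDPS, which makes farnesyl diphosphate, highest at 357 to 394 TPM and DHCR7, the last reductase of the route, next at 295 to 349 TPM. ACACB, which makes the malonyl-CoA that restrains fatty acid oxidation, and STARD4, a soluble sterol carrier, were lowest, with means over the 9 libraries under 3 TPM. The median CPM was 91.3 in the sterol branch and 65.4 in the fatty acid branch, beside 19.2 over the 15528 genes tested.

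**Figure D1:**
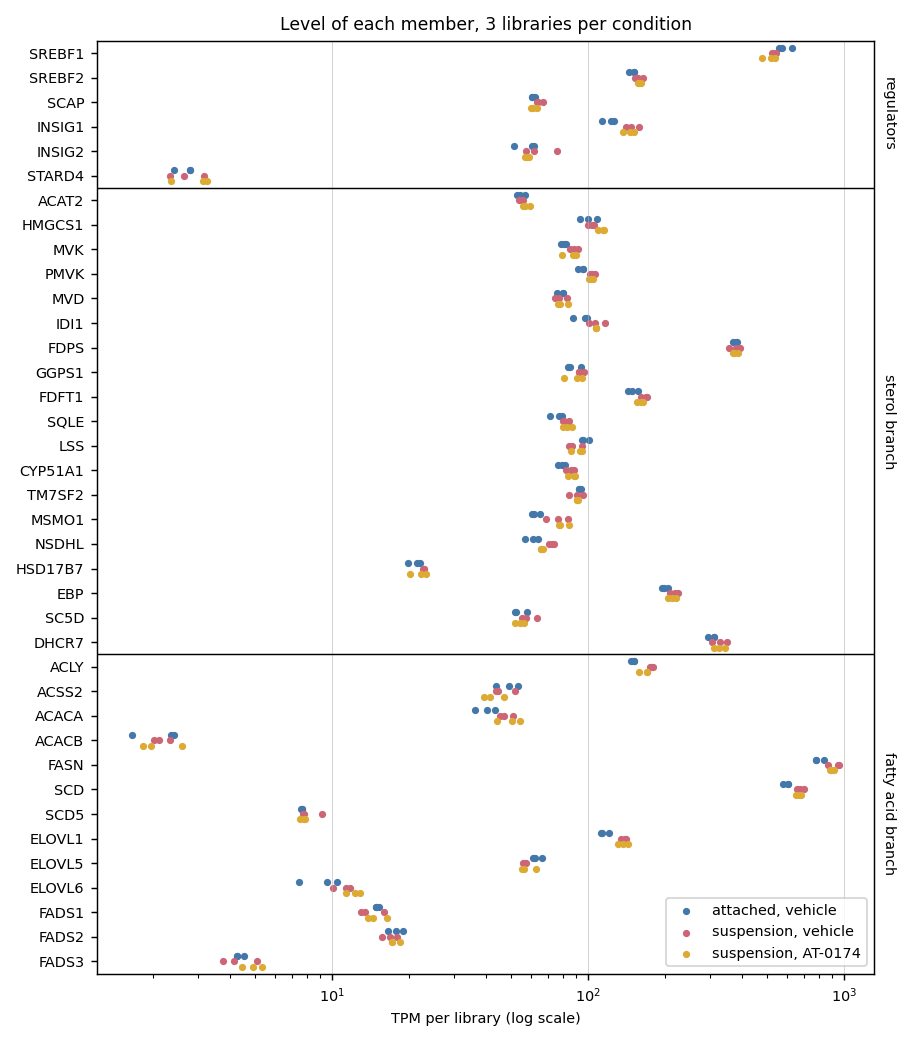
Level of each of the 38 members in TPM on a log axis, 1 point per library, with colors for attached vehicle, suspended vehicle and suspended AT-0174 cells. FASN, SCD and SREBF1 sit highest in all 9 libraries, and members differ far more from each other than 1 member differs between conditions.

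The sum of TPM over the sterol branch, divided by that over the fatty acid branch, was 1.18, 1.17 and 1.12 in the attached libraries, 1.09, 1.06 and 1.09 in suspended vehicle libraries and 1.12, 1.08 and 1.1 with AT-0174. The attached ratios lay above those of suspended vehicle cells without overlap. This ratio does not depend on library size, most of its denominator is FASN and SCD, and it carries no test. TPM was not used to test conditions, since the median log2 TPM of 11982 well-counted genes was itself 0.11 higher in suspended than in attached vehicle cells.

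The libraries held 36649997 to 48019126 estimated counts, and every member had at least 125 in every library. The luminal markers FOXA1, GATA3, SPDEF, EPCAM, KRT8, KRT18 and KRT19 were expressed in every library, with EPCAM lowest at 293 to 363 TPM. ERBB2, whose protein a triple-negative tumor by definition does not overexpress, lay at 398 to 436 TPM, and RNA does not measure that protein. Of 9 markers of blood, endothelial and stromal cells, 8 stayed under 1 TPM in every library, with CD3E, DCN and HBB at 0, whereas COL1A1 lay between 51.5 and 66 TPM. Reads that Salmon assigned to transcripts typed as retaining an intron made 4.87%, 4.88% and 5.5% of all reads in attached cells, 4.33%, 4.33% and 4.35% in suspended vehicle cells and 4.07%, 4.78% and 4.45% with AT-0174. Attached and suspended vehicle cells did not overlap in this share, and results were therefore also computed without those transcripts.

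Between attached and suspended vehicle cells, both branches held members called higher and members called lower. Log2 fold changes in suspension ran from −0.27 to 0.21 in the sterol branch and from −0.27 to 0.19 in the fatty acid branch. In suspended against attached vehicle cells, 14 of 38 members were called at an adjusted p under 0.05 (edgeR quasi-likelihood test, Benjamini–Hochberg over all 15528 genes), or 36.8%, beside 21.2% of all genes. Of these 7 rose and 7 fell (18.4% each), beside 10.4% and 10.8% of all genes. The members were more abundant than most genes, with a median CPM of 96.2 beside 19.2, and 34 of 38 lay above that median. No background of like abundance was run, so the shares here and below are not like for like. In the fatty acid branch 8 of 13 were called (61.5%), 4 higher and 4 lower. In the sterol branch 5 of 19 were called (26.3%), 2 higher and 3 lower, and among the regulators 1 of 6 (16.7%), INSIG1. The median log2 fold changes were −0.04, −0.02 and −0.01, beside 0 over all genes. The groups of libraries did not overlap for 11 of 13 fatty acid members and 5 of 19 sterol members, beside 38.1% of all genes. No test was made between the branches. The count of 14 became 9 without suspended vehicle replicate 1, beside 2673 of 15843 genes. It was 8 without suspended vehicle replicate 2, beside 1951 of 15796, and 6 in counts scaled by transcript length, beside 1726 of 15600.

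**Figure D2:**
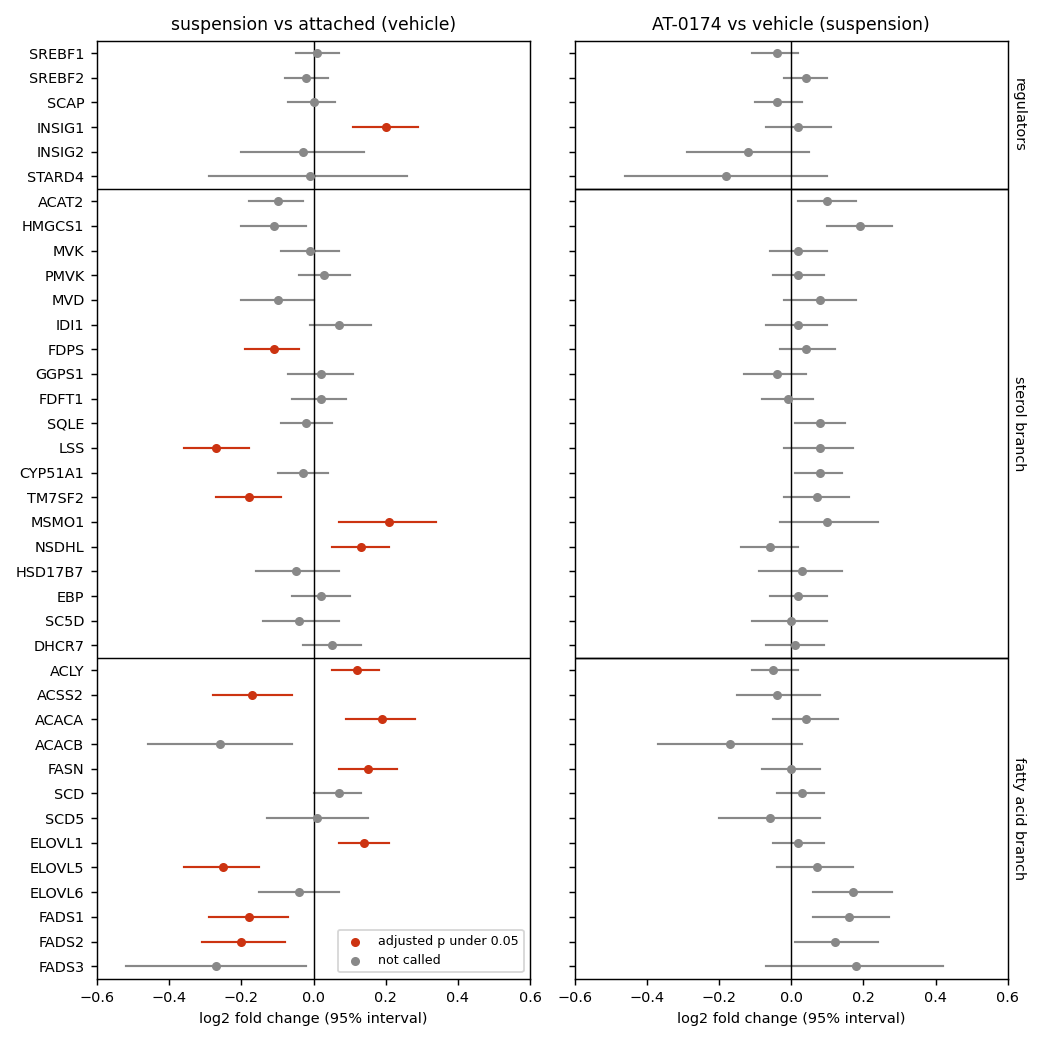
Log2 fold change of each member with its 95% interval, for suspended against attached vehicle cells on the left and AT-0174 against vehicle in suspension on the right. Red marks the 14 members called on the left, and none is red on the right.

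Among the regulators, INSIG1, which retains SCAP in the endoplasmic reticulum, read 180, 175 and 168 CPM, which are counts relative to the TMM-scaled library size, in attached cells and 193, 194 and 214 in suspended vehicle cells. All 3 suspended libraries lay above all 3 attached ones, and the log2 fold change was 0.20 ± 0.043 (SE, adjusted p = 0.0072). This call held in all 18 alternative fits at the same threshold, with an adjusted p of at most 0.033. The genes of the factors themselves gave no call. SREBF1 read 638, 642 and 662 CPM attached and 634, 657 and 662 suspended (log2 0.01 ± 0.029, adjusted p = 0.86). SREBF2 read 485, 501 and 497 CPM attached and 486, 495 and 484 suspended (log2 −0.02 ± 0.028, adjusted p = 0.74). The 95% interval was −0.05 to 0.07 for SREBF1 and −0.08 to 0.04 for SREBF2. SCAP, the escort protein, differed by a log2 of 0 ± 0.03 (adjusted p = 0.94) and INSIG2 by −0.03 ± 0.079 (adjusted p = 0.81), each with overlapping groups. STARD4 was not called either.

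The value for SREBF1 depended on which of its transcripts were counted. Its gene lies at chr17:17810399-17837002 on the minus strand of GRCh38. Transcripts that retain an intron took 21%, 20.2% and 24.8% of its reads in attached cells, 17.3%, 15.3% and 14.6% in suspended vehicle cells and 14.3%, 18.6% and 18.1% with AT-0174. The attached shares were all above the suspended ones. Without these transcripts SREBF1 was 0.11 higher in suspension on the log2 scale (adjusted p = 0.037), and in length-scaled counts it was −0.23 (adjusted p = 0.038). The most read transcript, SREBF1-202, which codes for 1177 residues, stood at 245, 240 and 220 CPM of the library total in attached and 278, 306 and 323 in suspended vehicle cells. The gene's MANE transcript, SREBF1-201 with 1147 residues, stood at 162, 160 and 167 against 156, 168 and 158. The former did not overlap between groups and the latter did, and neither was tested. Salmon divides reads that several transcripts share by a model, so these values are estimates.

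**Figure D3:**
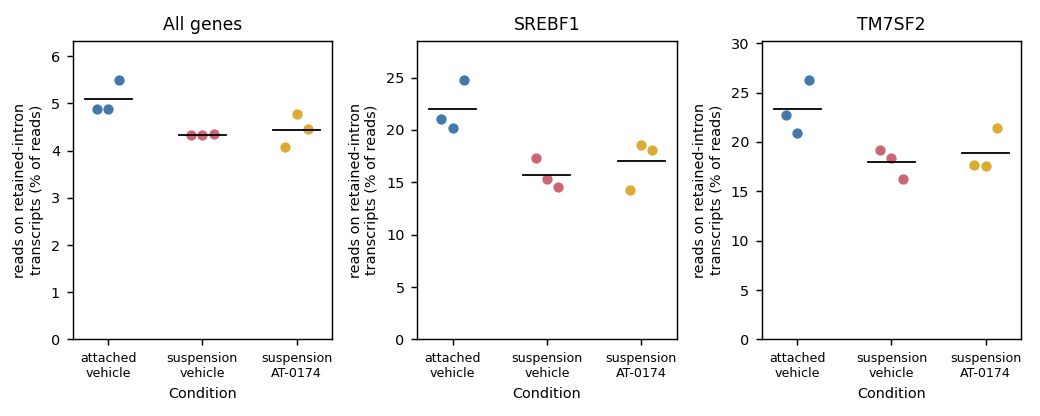
Share of reads assigned to retained-intron transcripts in each library, in percent, for all genes, SREBF1 and TM7SF2, with a line at the mean of each condition. The 3 attached libraries lie above the 3 suspended vehicle libraries in each panel.

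In the sterol branch, the enzymes of the mevalonate steps gave 1 call and those after squalene gave 4. FDPS read 269, 260 and 271 CPM attached and 238, 246 and 255 suspended, a log2 fall of −0.11 ± 0.033 (adjusted p = 0.029). LSS, which folds squalene epoxide into lanosterol, read 230, 230 and 242 CPM attached and 185, 193 and 204 suspended. It fell most of the branch, by −0.27 ± 0.042 on the log2 scale (adjusted p = 0.0013), with no overlap, and was called in all 18 alternative fits. TM7SF2, a sterol C14 reductase, read 73.2, 76.3 and 76.1 CPM attached and 64.2, 64.4 and 70.5 suspended (log2 −0.18 ± 0.042, adjusted p = 0.011). Both enzymes thus sat lower in every suspended vehicle library. MSMO1, which oxidizes the C4 methyl groups of sterols, rose from 86.7, 76 and 79.6 CPM to 85, 92.3 and 102 CPM (log2 0.21 ± 0.063, adjusted p = 0.036), with groups that overlapped. NSDHL, the dehydrogenase that acts after MSMO1, rose by 0.13 ± 0.037 on the log2 scale (adjusted p = 0.024). The other 14 sterol members were not called, and their log2 fold changes ran from −0.11 (HMGCS1) to 0.07 (IDI1). The 95% interval lay within a 1.2-fold change in either direction for 16 of the 19.

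The other 4 calls in the sterol branch were less steady than that of LSS, and length-scaled counts gave none of them. FDPS was not called without attached replicate 1 or 3 or suspended vehicle replicate 1 or 2, with adjusted p-values up to 0.1. MSMO1 was not called without attached replicate 2 or 3 or suspended vehicle replicate 2 or 3 (up to 0.14), NSDHL without attached replicate 3 or suspended vehicle replicate 1 or 3 (up to 0.093), and TM7SF2 without suspended vehicle replicate 2 (0.058). Retained-intron transcripts took 22.7%, 20.9% and 26.3% of TM7SF2 reads in attached cells and 19.2%, 18.4% and 16.2% in suspended vehicle cells. Without such transcripts TM7SF2 (log2 −0.09, adjusted p = 0.27), FDPS (−0.05, adjusted p = 0.39) and MSMO1 (0.19, adjusted p = 0.05 after rounding) lost their calls, and LSS kept its own (−0.25, adjusted p = 0.0015). ACAT2 and HMGCS1, the first enzymes of the route, were then called lower (−0.12, adjusted p = 0.034, and −0.13, adjusted p = 0.048).

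In the fatty acid branch, ACLY, ACACA, FASN and ELOVL1 rose and ELOVL5, FADS1, FADS2 and ACSS2 fell, and 5 of these 8 calls were lost in length-scaled counts. ACLY, which cleaves citrate to acetyl-CoA, rose by 0.12 ± 0.029 on the log2 scale (adjusted p = 0.016). ACACA, the carboxylase that makes malonyl-CoA for synthesis, read 174.3, 168.1 and 174.3 CPM attached and 196.2, 203.1 and 188.3 suspended (log2 0.19 ± 0.043, adjusted p = 0.01). FASN read 3690, 3740 and 4010 CPM attached and 4060, 4330 and 4280 suspended (log2 0.15 ± 0.037, adjusted p = 0.015). The groups did not overlap for any of these 3 genes. ELOVL1, the elongase of very long saturated chains, read 101, 97.1 and 98.8 CPM attached and 109, 110 and 108 suspended (log2 0.14 ± 0.033, adjusted p = 0.011). SCD, which follows FASN, differed by 0.07 ± 0.028 (adjusted p = 0.12).

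Of the members that fell, ELOVL5, the elongase of polyunsaturated chains, read 115, 107 and 113 CPM attached and 97, 90.2 and 93.7 suspended (log2 −0.25 ± 0.048, adjusted p = 0.0036). FADS1, the delta-5 desaturase, read 37, 37.7 and 33.3 CPM attached and 30.9, 31.8 and 32.4 suspended (log2 −0.18 ± 0.049, adjusted p = 0.021). FADS2, the delta-6 desaturase beside it on chromosome 11, read 27.3, 28.9 and 26.8 CPM attached and 22.7, 25.4 and 24.3 suspended (log2 −0.20 ± 0.052, adjusted p = 0.019). All 3 were lower in each suspended vehicle library than in any attached one. FADS1 and FADS2 share 490 exon bases on opposite strands, and whether the quantification used strand is not given in the sources used here. Other members share exon bases with a gene on the opposite strand too. Among them are ACAT2 with TCP1 (454 bases, TCP1 at a mean of 338 CPM) and SREBF1 with RAI1 (556 bases, RAI1 at 187 CPM). ACSS2, which makes acetyl-CoA from acetate, read 72.3, 69 and 72.3 CPM attached and 63.6, 59.2 and 67 suspended (log2 −0.17 ± 0.052, adjusted p = 0.034). The ACSS2 groups did not overlap, and its call held in 13 of 18 alternative fits. Of the 5 members not called, ACACB (−0.26, adjusted p = 0.062) and FADS3 (−0.27, adjusted p = 0.11) had the lowest values and SCD the highest.

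ACLY, ELOVL1 and ELOVL5 were called in all 18 alternative fits, and ACACA in all but that on length-scaled counts (adjusted p = 0.25), where ACSS2, FADS1, FADS2 and FASN were not called either. FASN was not called without attached replicate 1 or suspended vehicle replicate 2 or 3 (adjusted p up to 0.063). FADS1 was not called without attached replicate 1 or 2 or suspended vehicle replicate 1 or 2 (up to 0.081), FADS2 without attached replicate 2 or suspended vehicle replicate 1 or 3 (up to 0.073), and ACSS2 without attached replicate 1 or 3 or suspended vehicle replicate 1 or 2 (up to 0.15). All 8 fatty acid calls held without retained-intron transcripts, and FADS1 had no reads on any. The signs of all 8 were the same in each of the 18 fits.

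**Figure D4:**
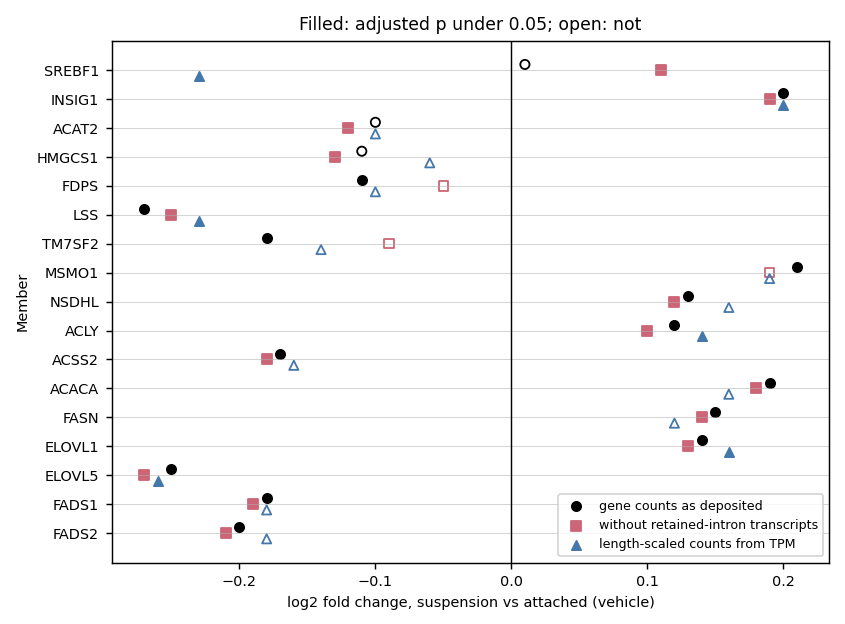
Log2 fold change of suspended against attached vehicle cells for the 17 members called under any of 3 ways of counting: gene counts as deposited, the same without retained-intron transcripts, and length-scaled counts. Filled symbols passed an adjusted p of 0.05, and SREBF1 alone takes opposite signs, at 0.11 and −0.23.

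With AT-0174 against vehicle in suspension, log2 fold changes of the members ran from −0.18 to 0.19. For suspended against attached vehicle cells they ran from −0.27 to 0.21. HMGCS1, at 0.19 ± 0.041, was not called here, whereas ACACA, at 0.19 ± 0.043, was called there. The adjustment takes in all genes tested, of which 121 were called here and 3297 there, so calls in the comparisons do not measure size alike. No member of the 38 was called by edgeR's quasi-likelihood test, beside 0.779% of all genes (0.522% higher and 0.258% lower). At that share 38 genes would give few or no calls. An unadjusted p under 0.05 was found for 7, namely ACAT2, HMGCS1, SQLE, CYP51A1, ELOVL6, FADS1 and FADS2. All 7 were higher with AT-0174, by a log2 of 0.08 (SQLE and CYP51A1) to 0.19 (HMGCS1). The share of all genes under that p was not computed. DESeq2's Wald test called 1, HMGCS1, beside 239 of 15528 genes, and limma-voom none, beside 127. The median log2 fold change was 0.03 in the sterol branch, 0.03 in the fatty acid branch and −0.04 among the regulators, beside 0 over all genes. In the sterol branch 15 of 19 members had a positive value, in the fatty acid branch 8 of 13, and over all genes 50.7%. The groups did not overlap for 7 of the 38 members (18.4%), beside 15.4% of all genes. By branch these were 5 of 19 sterol members (26.3%) and 2 of 13 fatty acid members (15.4%). The 95% interval lay within a 1.2-fold change for 31 of the 38, including 18 of 19 sterol members, and the widest bounds were −0.46 (STARD4) and 0.42 (FADS3) on the log2 scale.

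The regulators showed no call with the inhibitor. SREBF1 read 634, 657 and 662 CPM with vehicle and 626, 641 and 631 with AT-0174 (log2 −0.04 ± 0.029, adjusted p = 0.74). SREBF2 read 486, 495 and 484 CPM with vehicle and 508, 494 and 507 with AT-0174 (log2 0.04 ± 0.028, adjusted p = 0.73). SCAP read 155, 155 and 159 CPM with vehicle and 156, 150 and 152 with AT-0174 (log2 −0.04 ± 0.03, adjusted p = 0.79). The conditions overlapped for each of these genes. INSIG1 read 193, 194 and 214 CPM with vehicle and 208, 198 and 202 with AT-0174 (log2 0.02 ± 0.043, adjusted p = 0.95). INSIG2 read 69.8, 63.7 and 79.5 CPM with vehicle and 65.2, 62.3 and 68.1 with AT-0174 (log2 −0.12 ± 0.079, adjusted p = 0.71). These groups overlapped too.

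HMGCS1, which joins acetoacetyl-CoA and acetyl-CoA ahead of mevalonate, had the smallest p of the members with AT-0174 and was singled out after its values were seen. It read 147, 150 and 146 CPM with vehicle and 164, 168 and 173 with AT-0174, and the attached libraries stood at 164, 166 and 148. The same suspended vehicle libraries enter the comparison with attached cells, so low values in them lower that fold change and raise this one. The treated libraries lay above the suspended vehicle libraries without overlap, and the log2 fold change was 0.19 ± 0.041 with an adjusted p of 0.062. HMGCS1 was called, each time as the only member, in the fits without attached replicate 3, without the filter on low counts, on the 6 suspended libraries alone and by DESeq2. Its adjusted p ran up to 0.29 when a library was left out. FASN (log2 0 ± 0.037) and FDPS (0.04 ± 0.033), the most abundant enzymes of their branches, were not called.

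**Figure D5:**
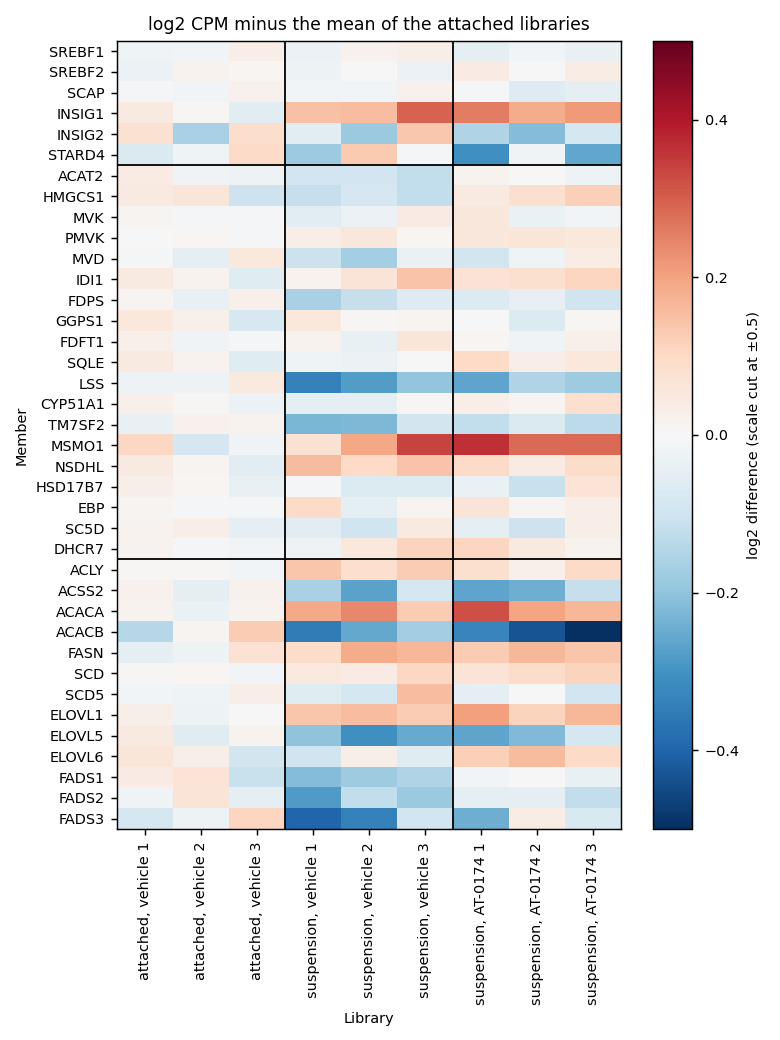
Log2 CPM of each member in each of the 9 libraries, less the mean of the 3 attached libraries, with red for higher and blue for lower and the scale held between −0.5 and 0.5. INSIG1, MSMO1, ACACA and ELOVL1 are red across suspended vehicle and AT-0174 libraries, and LSS, ACSS2 and ELOVL5 are blue across both.

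Suspended cells with AT-0174 were also compared with attached vehicle cells. This comparison changes culture and inhibitor together and shares libraries with both others, so its values are given beside theirs and not as separate evidence. It called 10 of 38 members (26.3%), beside 24% of all genes, with 7 of 13 in the fatty acid branch (53.8%), 2 of 19 in the sterol branch (10.5%) and INSIG1. The groups did not overlap for 18 of the 38 (47.4%), beside 39.5% of all genes. The 6 higher members (15.8%, beside 12.2% of all genes) were INSIG1 (log2 0.22 ± 0.043, adjusted p = 0.0036), MSMO1 (0.31 ± 0.063, 0.0041), ACACA (0.23 ± 0.043, 0.0028), FASN (0.14 ± 0.037, 0.015), SCD (0.09 ± 0.028, 0.033) and ELOVL1 (0.16 ± 0.033, 0.0038). The 4 lower members (10.5%, beside 11.8%) were LSS (−0.20 ± 0.042, 0.0057), ACSS2 (−0.21 ± 0.052, 0.012), ACACB (−0.43 ± 0.093, 0.0057) and ELOVL5 (−0.19 ± 0.048, 0.014). Among the other regulators, log2 fold changes were −0.03 ± 0.029 for SREBF1, 0.03 ± 0.028 for SREBF2, −0.04 ± 0.03 for SCAP and −0.16 ± 0.079 for INSIG2, with none called.

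With AT-0174, INSIG1 read 208, 198 and 202 CPM, MSMO1 104, 98.1 and 98.1, and LSS 195, 211 and 207. Of the fatty acid enzymes, ACACA read 214.7, 196.6 and 192.9 CPM, ELOVL1 114, 107 and 111, ELOVL5 93, 95.9 and 105, and ACSS2 59.3, 60.1 and 65.7. For each of these 7 genes the 3 AT-0174 libraries lay outside the attached range, whereas for MSMO1 the suspended vehicle libraries overlapped it. ACACB, a member of low level, read 7.5, 8.36 and 9.04 CPM attached, 6.49, 6.94 and 7.33 in suspension with vehicle and 6.58, 6.14 and 5.71 with AT-0174. FADS1, at 35.6, 36 and 35 CPM with AT-0174, lay within its attached range, with a log2 value of −0.02 ± 0.049 against attached and 0.16 ± 0.049 (adjusted p = 0.22) against suspended vehicle cells. Its fall in suspension and this rise rest on the same suspended vehicle libraries and are not separate evidence. In length-scaled counts ACACB, the member with the largest change in this comparison, was at −0.07 (adjusted p = 0.84), and the calls of ACACA (adjusted p = 0.066), ACSS2 (0.095), FASN (0.11) and LSS (0.12) were lost as well. SCD was called in only 8 of 18 alternative fits. Its call was lost without any 1 of the 3 attached replicates, suspended vehicle replicate 2 or AT-0174 replicate 2 or 3 (adjusted p up to 0.12). It was also lost with no filter on low counts, with at least 10 counts in every library, on the 6 libraries of the contrast and without retained-intron transcripts. FASN was not called without attached replicate 1 (up to 0.061), ACSS2 without AT-0174 replicate 1 (up to 0.059) and ELOVL5 without either of these libraries (up to 0.067).

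Other genes of lipid metabolism gave 21 calls among 71 tested in suspended against attached vehicle cells (29.6%), beside 21.2% of all genes. By list the share ran from 8.33% (isoprenoid use) to 50% (lipogenic regulators), over lists of 5 to 16 tested genes. The 21 became 11 in length-scaled counts, 11 without suspended vehicle replicate 2 and 12 without attached replicate 3 (15.5%, 15.5% and 16.9%). Over all genes these fits called 1726 of 15600, 1951 of 15796 and 1935 of 15798. The genes called in all 18 alternative fits were 8, namely SPRING1, MID1IP1, PRKAA2, AGPAT2, LPIN3, CPT1B, ECHS1 and HADHB. Of the list on SREBP processing and sterol-regulated degradation, 3 of 8 tested members were called, all higher: SPRING1 (log2 0.16 ± 0.031, adjusted p = 0.0046), which is needed for SREBP cleavage, MBTPS2 (0.21 ± 0.064, 0.037), the site-2 protease, and RNF139 (0.18 ± 0.055, 0.037), a ubiquitin ligase of the endoplasmic reticulum. MBTPS2 was called in 10 of the 18 alternative fits and RNF139 in 11, and both calls were lost in length-scaled counts, without retained-intron transcripts and on the 6 libraries of the contrast. Of LXR and sterol efflux genes 1 of 5 was called, NR1H2, which encodes LXR-beta (0.12 ± 0.033, 0.022). Lipogenic regulators gave 4 calls of 8, 2 in each direction. MID1IP1, which activates acetyl-CoA carboxylase, rose by 0.35 ± 0.041 (adjusted p = 0.00021). PRKAA2, a catalytic subunit of AMPK, rose by 0.37 ± 0.052 (0.00074), and PRKAB1, a beta subunit, fell by −0.22 ± 0.06 (0.023).

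Esterification and lipid droplet genes gave 4 calls of 11, 2 in each direction, led by LPIN3, a phosphatidate phosphatase (−0.63 ± 0.11, adjusted p = 0.0023), AGPAT2, an acyltransferase (0.22 ± 0.039, 0.0024), and LPIN1 (−0.22 ± 0.054, 0.013). Of fatty acid oxidation genes 7 of 16 were called, 4 higher and 3 lower, led by ACADVL (−0.36 ± 0.066, 0.0032), the very long-chain dehydrogenase, CPT1B (−0.60 ± 0.13, 0.0078), the muscle type carnitine palmitoyltransferase, and ECHS1 (0.15 ± 0.034, 0.0087), the enoyl-CoA hydratase. The elongation cycle and citrate or NADPH supply gave 1 call of 11, HACD3 (0.10 ± 0.033, 0.043), a dehydratase of the cycle, and isoprenoid use 1 of 12, NUS1 (0.13 ± 0.039, 0.039), a subunit of the enzyme that makes dolichol precursors. HACD3 and NUS1 were each called in only 7 of the 18 alternative fits, and ACADVL was not called without retained-intron transcripts (adjusted p = 0.13). With AT-0174 against vehicle in suspension, edgeR's test called none of the 71, beside 0.779% of all genes. Of the 71, 4 had an unadjusted p under 0.05, a share not computed over all genes. DESeq2 called 1, ABCG1, a sterol exporter, beside 239 of 15528 genes, and limma-voom none, beside 127. The fit without the filter on low counts called 3 of 79 tested (ABCG1, ACADVL and SOAT1), beside 499 of 29181 genes. That without AT-0174 replicate 3 called only SOAT1, beside 70 of 15800 genes.

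In the comparison of suspended AT-0174 cells with attached vehicle cells, 20 of the 71 were called (28.2%), beside 24% of all genes. The 20 became 11 in length-scaled counts, 11 without AT-0174 replicate 1 and 12 without attached replicate 3 (15.5%, 15.5% and 16.9%). Over all genes these fits called 2076 of 15600, 2239 of 15817 and 2381 of 15798. Of the 20, 8 were called in all 18 alternative fits: SPRING1, ABCG1, MID1IP1, SOAT1, AGPAT2, LPIN3, ACSL4 and CPT1B. NR1H2 was called in only 5 of the 18 fits and PRKAA2 in 9. Among the 20 were SPRING1 (log2 0.13 ± 0.031, adjusted p = 0.012) and MBTPS2 (0.23 ± 0.064, 0.02), ABCG1 (−0.24 ± 0.041, 0.0016) and NR1H2 (0.10 ± 0.033, 0.041), and MID1IP1 (0.38 ± 0.041, 6.7e-05), PRKAB2 (−0.30 ± 0.064, 0.0058) and PRKAA2 (0.17 ± 0.052, 0.033). SOAT1, which esterifies cholesterol (−0.31 ± 0.055, 0.0018), AGPAT2 (0.21 ± 0.039, 0.0026), LPIN3 (−0.47 ± 0.11, 0.0081), ACSL4 (−1.28 ± 0.25, 0.0034), an activator of arachidonate, CPT1A (0.25 ± 0.055, 0.0065) and CPT1B (−0.55 ± 0.13, 0.01) were called, as were TECR (−0.13 ± 0.037, 0.024) and HACD1 (−0.58 ± 0.17, 0.03).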

How the data were processed

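Bulk RNA-seq was analysed from 9 libraries of MDA-MB-453 cells. Per the paper's methods the authors trimmed reads with Cutadapt 3.4 in Trim Galore 0.6.7, aligned them with STAR 2.7.9a to GRCh38, and quantified transcripts with Salmon 1.10.1. The labels and the methods name different library kits. The authors deposited estimated counts summed by gene, not normalized, and TPM values per transcript, scaled per effective length by Salmon. The transcript-to-gene table that the authors deposited was used only to join names.

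Estimated counts were rounded, filtered with filterByExpr (15528 genes kept), scaled by TMM and fitted in 1 edgeR 4.0.16 quasi-likelihood model (R 4.3.3) over all 9 libraries with condition as the only term. Adjusted p-values are Benjamini–Hochberg over all genes, with a threshold of 0.05, and the common biological coefficient of variation was 5.03%. Standard errors are the log2 fold change over the root of the F statistic. Simulated counts with known changes were used to test the fit, and the share of those changes that it recovered is not given here. Alternatives used DESeq2 1.42.0 (size factors, or its Wald test), limma-voom (limma 3.58.1), other filters, fewer libraries, a replicate block, length-scaled counts, a threshold of 0.01 and, chosen after seeing the data, no retained-intron transcripts (GENCODE release 44).

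The members and lists were chosen with earlier results of these data known. Members past the threshold and SREBF1, SREBF2, SCAP, INSIG1 and INSIG2 are named in each contrast. Values in every library go to the 8 with the largest log2 fold change and to the most abundant member of each branch. Of each other list, at most 3 called genes are named. Intervals and p-values cover the spread of 3 libraries per condition. A marker of the fixed list is not reported here.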

Additional observations from a re-analysis of the deposited data

How the results depend on the processing

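Of 2166 alternative values for single members, 2076 stayed on the same side of the threshold with no called value changing sign, 73 lost a call, 16 gained one and 1 reversed. Most of the 2076 were values not called in the main fit either, and some fits left out a library outside the comparison. The 73 lost calls fall on the 14, 0 and 10 members called in the 3 comparisons. Length-scaled counts alone lost 14. The reversal was SREBF1 in suspended against attached vehicle cells, at −0.23 (adjusted p = 0.038) in length-scaled counts. The count of 14 members called in that comparison became 6 in length-scaled counts, of which 5 were among the 14, 3 at an adjusted p of 0.01, and 8 to 14 with a library left out. Without retained-intron transcripts it was also 14, of which 11 were the same genes. With AT-0174 against vehicle the count of 0 became 1 by DESeq2's Wald test, with no filter on low counts and on the 6 libraries of the contrast. Over all genes these fits called 239 of 15528, 499 of 29181 and 125 of 15221. With a library left out the count was 0 to 1, the latter without attached replicate 3, beside 128 of 15798 genes. The count of 10 in suspended AT-0174 against attached vehicle cells became 6 in length-scaled counts, beside 2076 of 15600 genes. At an adjusted p of 0.01 it was also 6, beside 1839 of 15528. With a library left out it ran from 7 (without attached replicate 1, beside 3175 of 15812 genes) to 11 (without suspended vehicle replicate 3, beside 3483 of 15820). The fatty acid median of that comparison moved from −0.02 to 0.08 in length-scaled counts, and the other medians stayed within 1 SD of the replicates under every alternative run. The cause of these shifts was not tested, except that a stricter threshold calls fewer genes by construction. Length-scaled counts called 1726 of 15600 genes in suspended against attached vehicle cells, against 3297 of 15528 in the counts as deposited. At an adjusted p of 0.01, 8 of the 71 other lipid genes (11.3%) were called in each comparison with attached cells. Over all genes 1405 of 15528 were then called with vehicle in suspension and 1839 with AT-0174.

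Replicates of the same number did not deviate together (correlations of −0.0664 to 0.0495 between conditions), so the numbers were not taken as pairs. With a replicate block the counts were 14, 0 and 11, INSIG2 being the added call. Not every library correlated best with its own number.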
